A study of Mus musculus with 4 samples.

Results

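The 35 genes described here encode the cytosolic aminoacyl-tRNA synthetases (20 genes) and the amino acid response driven by the transcription factor ATF4 (15 genes). They were chosen by name from what the pathway is known to hold, with earlier results of these data known. All 35 are among the 17104 genes of the deposited table. LSCs, the leukemia stem cells of an acute myeloid leukemia (AML) driven by the MLL-AF9 fusion, had been sorted as YFP+, c-kit+ cells from the bone marrow of male C57 mice, 6 weeks after a secondary transplantation. There were 2 libraries of CD37 fl/fl LSCs and 2 of CD37-/- LSCs. The leukemia had been started with a retrovirus carrying MLL-AF9 and YFP in lineage-negative bone marrow cells of mice with floxed Cd37 and a tamoxifen-inducible Cre that is expressed in all tissues. Both groups therefore carry the floxed alleles, the Cre and the fusion, and they differ in what the recipients of the primary transplantation were given, tamoxifen for CD37-/- and corn oil for CD37 fl/fl. Cd37 encodes a tetraspanin of the leukocyte surface, and the comparison asks which transcripts differ in LSCs after its deletion. The mice behind a library are not named in the labels, so the p-values measure the spread between these libraries.

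Aminoacyl-tRNA synthetases join each amino acid to its tRNA before translation, and several of them sit together in a multi-synthetase complex. When amino acids run short, uncharged tRNAs activate the kinase GCN2, which phosphorylates the initiation factor eIF2 alpha. General translation then slows while ATF4 is translated more, and ATF4 with C/EBP partners induces genes for amino acid synthesis, amino acid import, tRNA charging and feedback on the response itself. In leukemia cells the same program is known as a part of the response to nutrient and endoplasmic reticulum stress.

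Values were FPKM, fragments per length of gene and sequencing depth. The reads behind them, recovered from the steps of the low values, were whole for all 35 genes and gave totals of 15327357 to 22627491 reads per library. A pair of values is given in the order replicate 1, replicate 2. The length was that of the whole gene span with introns, so a gene with long introns has a low FPKM for its reads. Cd37 had an FPKM of 56.6 and 46.8 in CD37 fl/fl against 23.2 and 22.9 in CD37-/- LSCs, lower but not absent. The loxP sites flank only a part of the gene, and reads from the rest of it still count. The completeness of the deletion can therefore not be read from these values. Of the stem and progenitor markers, Kit had 213 to 804 reads and Hoxa9 had an FPKM of 38.8 to 47.2, while Cd34 had no more than 16 reads in any library. Both CD37-/- libraries were above both CD37 fl/fl libraries for Kit (FPKM 0.170 and 0.325 against 0.327 and 0.434), Meis1 (0.512 and 0.573 against 0.884 and 0.851) and Hoxa10 (3.79 and 4.30 against 8.01 and 10.4). Some genes listed as erythroid, T and NK cell, myeloid and B cell markers moved with genotype too. The summed FPKM of 7 erythroid genes was 60.9 and 5.17 in CD37 fl/fl against 576 and 143 in CD37-/- replicates 1 and 2, with all 7 higher in CD37-/- and most of the sum in the globins Hbb-bs, Hbb-bt, Hba-a1 and Hba-a2. The 3 measured T and NK cell genes, nearly all of it Nkg7, summed to 94.6 and 118 against 40.2 and 41.3. Beside it, Cd3g had 0 reads in both CD37 fl/fl libraries against 9 and 2 in CD37-/-, and Klrb1c had 0 and 1 against 6 and 0. The 5 measured myeloid genes summed to between 2240 and 2530 in every library, most of it Elane. Of these, Mpo was lower in both CD37-/- libraries (80.3 and 51.6 against 34.4 and 20.8), as was Prtn3 (411 and 489 against 307 and 256). Ly6c2 was higher in both (166 and 149 against 196 and 201), and the groups overlapped in Elane and Csf1r. The 4 measured B cell genes summed to 12.8 and 15.4 in CD37 fl/fl and to 8.46 and 6.64 in CD37-/- LSCs, most of it Cd79b, and the 6 stroma genes reached at most 0.0846. The leukemia is itself myeloid, so the values do not show which cells carry these genes. Whether other cells play a part in the results below was not tested. In bulk RNA, fewer cells of a type and less RNA per cell cannot be told apart.

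ATF4 acts through a DNA element that joins a C/EBP site to an ATF site, and its core, TGATGNAA on either strand, was searched in the RefSeq promoter table (GRCm38.p6), from 250 bases before to 50 bases after each start. The search covered 25 of the 35 genes, and the table holds no entry for Cars, Hars, Lars, Nars, Rars, Vars, Wars, Slc7a5 and Slc1a5. A match was present in 8 of the 25 (32.0%), whereas 4.51% of the 27025 genes and 3.97% of the 32851 promoters in the table hold one. The 35 genes were listed for their known place in this pathway, so the higher share among them is not independent of that choice. A match is a run of letters, not a shown binding site. The 9 matches are given for their position and for the base at N, since the search itself fixed the rest of the core. Each has the match in capitals within 30 bases of the gene's own strand.
Asns, chr6:7693214-7693243, minus strand: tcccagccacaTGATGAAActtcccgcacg
Chac1, chr2:119351038-119351067, plus strand: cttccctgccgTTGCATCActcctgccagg
Gars, chr6:55037960-55037989, plus strand: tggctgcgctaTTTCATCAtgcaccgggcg
Iars, chr13:49682126-49682155, plus strand: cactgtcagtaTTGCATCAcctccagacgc
Slc7a11, chr3:50443661-50443690, minus strand: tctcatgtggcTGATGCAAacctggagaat
Slc7a11, chr3:50443642-50443671, minus strand: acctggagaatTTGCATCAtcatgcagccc
Tars, chr15:11399655-11399684, minus strand: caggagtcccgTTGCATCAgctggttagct
Trib3, chr2:152344028-152344057, minus strand: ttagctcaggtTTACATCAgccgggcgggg
Yars, chr4:129189895-129189924, plus strand: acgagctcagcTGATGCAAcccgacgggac

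The match lies before the start in Asns, Chac1, Gars, Slc7a11 and Tars, at a distance from 15 bases (Tars) to 193 bases (Chac1). It lies after the start in Iars, Trib3 and Yars. Slc7a11, the cystine transporter, has 2 matches, 1 on each strand. The core is TGATGCAA in Chac1, Iars, Slc7a11, Tars and Yars, TGATGAAA in Asns and Gars, and TGATGTAA in Trib3. Longer stretches are shown for Chac1, Tars and Gars, the 3 tested genes with the smallest unadjusted p among those whose match precedes the start in both RefSeq and GENCODE. They run up to the earlier start, with the match in capitals, and show the sequence around the core.
Chac1, chr2:119350992-119351228, plus strand: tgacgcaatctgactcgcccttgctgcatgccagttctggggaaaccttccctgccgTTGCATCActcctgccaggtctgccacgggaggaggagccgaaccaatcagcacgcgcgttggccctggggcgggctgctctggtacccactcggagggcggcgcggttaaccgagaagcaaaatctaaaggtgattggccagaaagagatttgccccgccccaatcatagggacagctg
Tars, chr15:11399666-11399908, minus strand: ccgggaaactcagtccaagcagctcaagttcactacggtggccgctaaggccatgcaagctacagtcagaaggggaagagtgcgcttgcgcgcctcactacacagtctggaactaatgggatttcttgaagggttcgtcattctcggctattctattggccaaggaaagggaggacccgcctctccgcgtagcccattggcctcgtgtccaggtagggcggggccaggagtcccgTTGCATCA
Gars, chr6:55037751-55038000, plus strand: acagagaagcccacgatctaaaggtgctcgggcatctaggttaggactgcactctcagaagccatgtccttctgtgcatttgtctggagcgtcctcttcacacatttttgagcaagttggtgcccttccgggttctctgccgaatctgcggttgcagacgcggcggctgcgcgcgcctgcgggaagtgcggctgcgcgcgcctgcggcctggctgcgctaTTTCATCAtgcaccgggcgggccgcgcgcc

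With limma and Benjamini-Hochberg adjustment over 6761 genes, 0 genes of the whole table (0.0%) and therefore 0 of the 34 tested genes of the pathway passed an adjusted p of 0.05 for a difference between the genotypes. Limma-voom on the recovered reads also called 0 genes. An exact permutation test of 2 against 2 libraries cannot go below p = 0.333. Without adjustment, 1626 genes had a p under 0.05, 66.9% of them higher in CD37-/-, and 3261 with limma-voom. Of all tested genes 16.1% were higher and 7.96% were lower by this rule. Of the 34 genes described here 1 was higher (2.94%), Dars, and 4 were lower (11.8%), Cars, Sars, Yars and Phgdh. With limma-voom, 2 of 35 were higher (5.71%, against 19.1% of all genes), Dars and Iars, and the same 4 were lower (11.4%, against 6.19%). Slc7a11, with a mean FPKM under 1, was not tested by the first of these fits. By sign alone, 12 of the 34 were higher and 22 lower, with a median log2 fold change of -0.10, where 58.8% of all tested genes were higher and their median was 0.11. These shares describe the genes beside the table as a whole and set no list apart from other genes.

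The scaling of the libraries set some of the signs, turning 14 of 34 after rescaling every library to the same sum and 2 after quantile normalization. Over all tested genes the median log2 fold change was 0.11 with the deposited FPKM, -0.02 after quantile normalization, 0.25 with limma-voom and 0.40 after rescaling every library to the same sum, and the share of the unadjusted calls that were higher was 66.9%, 48.0%, 75.5% and 91.5% in the same order. The median of the 20 synthetases was -0.15 with the deposited FPKM, -0.29 after quantile normalization and -0.18 with limma-voom, but 0.17 after rescaling to the same sum. Set against the median of all genes, it was lower by each of them, with a difference of -0.25, -0.27, -0.44 and -0.24. The median of the ATF4 response genes was -0.06, -0.13, -0.08 and 0.27, which is -0.17, -0.11, -0.33 and -0.13 relative to all genes, a sign that turned without CD37 fl/fl replicate 2 (0.18).

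Among the synthetases, 3 had both CD37-/- libraries above both CD37 fl/fl libraries and 6 had both below, which is 15.0% and 30.0% of the 20, while 38.2% and 23.7% of all tested genes did so. Dars, which charges tRNA with aspartate, had the largest positive difference. Its FPKM was 1.74 and 2.45 in CD37 fl/fl against 4.25 and 5.01 in CD37-/- LSCs, with 1434 to 6083 reads behind each value. The groups did not overlap, and the CD37-/- mean was 2.21 times that of CD37 fl/fl. The log2 fold change of Dars was 0.87 (standard error 0.20, 95% interval 0.37 to 1.37), with an adjusted p of 0.113 by limma with Benjamini-Hochberg adjustment. Dars kept an unadjusted p under 0.05 in every alternative fit run, including each of the 4 that leave out 1 library. Its smallest adjusted p over the alternatives was 0.0678 and its largest 0.38.

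Iars, the isoleucine enzyme, had an FPKM of 1.07 and 1.92 in CD37 fl/fl against 2.22 and 3.67 in CD37-/- LSCs. The groups did not overlap, but the lower CD37-/- library and the higher CD37 fl/fl library were close. Its log2 fold change, with its standard error, was 0.66 ± 0.27 (adjusted p by limma 0.211), and 14.5% of its stretches of 31 bases occur also in the processed pseudogene Gm4849, so that part of its count is uncertain. Tars, the threonine enzyme, had an FPKM of 6.42 and 9.85 against 12.2 and 12.3. Its log2 fold change, with its standard error, was 0.56 ± 0.25 (adjusted p by limma 0.236). Both CD37-/- libraries of Tars were nearly equal, and the spread lay in CD37 fl/fl.

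Yars, Sars and Cars, which charge tRNA with tyrosine, serine and cysteine, were the lower synthetases with an unadjusted p under 0.05. The FPKM of Yars was 11.9 and 13.7 in CD37 fl/fl against 8.74 and 6.90 in CD37-/- LSCs. That of Sars was 15.6 and 19.0 against 11.5 and 10.05, and that of Cars was 5.43 and 6.93 against 4.42 and 3.53. In each of the 3 genes the groups did not overlap, and the CD37-/- mean was 61.2%, 62.2% and 64.3% of the other in the same order. The log2 fold changes were -0.65 (standard error 0.22), -0.64 (0.23) and -0.53 (0.21), with adjusted p of 0.164, 0.173 and 0.206 by limma with Benjamini-Hochberg adjustment. All 3 stayed lower but lost the unadjusted call after rescaling to the same sum, with values of -0.30, -0.28 and -0.21. They also lost it without CD37 fl/fl replicate 2, where the values were -0.56, -0.50 and -0.38. Without CD37-/- replicate 2 none of the 3 had the call (-0.50, -0.55 and -0.40), and without CD37-/- replicate 1 only Yars did (-0.80, beside -0.72 for Sars and -0.66 for Cars).

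**Figure D1:**
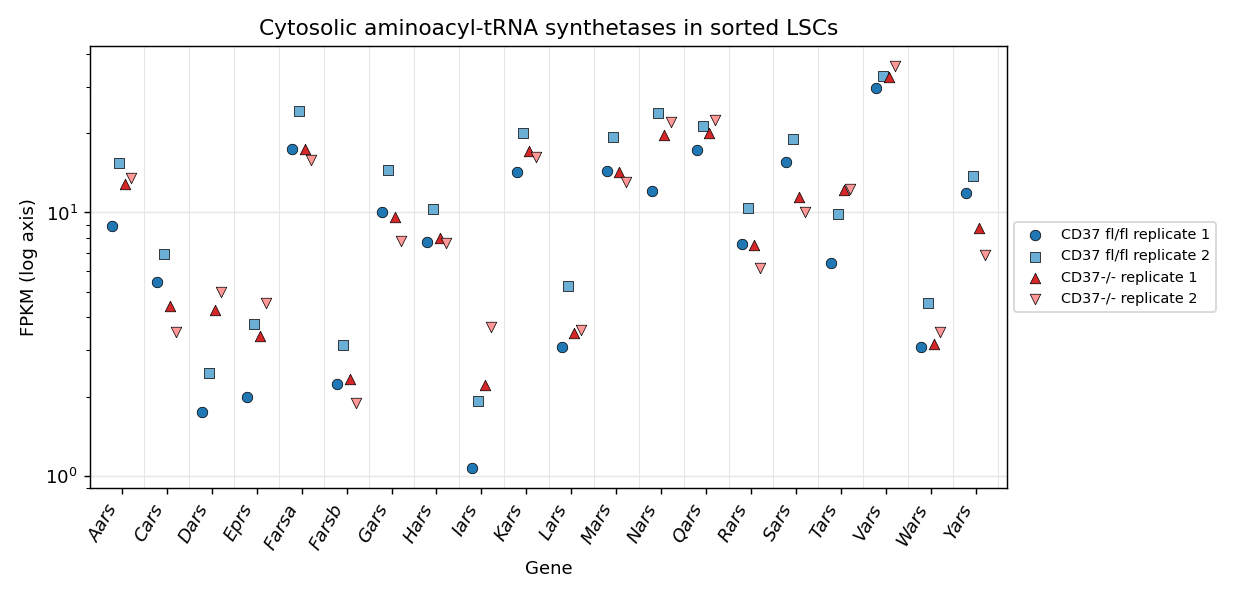
FPKM on a log axis of the 20 cytosolic aminoacyl-tRNA synthetases in each of the 4 libraries (circles and squares, CD37 fl/fl replicates 1 and 2; triangles up and down, CD37-/- replicates 1 and 2). Dars has both CD37-/- points above both CD37 fl/fl points, Sars and Yars have both below, and for all 20 genes CD37 fl/fl replicate 2 lies above replicate 1.

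Gars, Mars and Rars, which charge tRNA with glycine, methionine and arginine, also had both CD37-/- libraries below both CD37 fl/fl libraries. The FPKM of Gars was 10.02 and 14.5 in CD37 fl/fl against 9.64 and 7.80 in CD37-/- LSCs, with a log2 fold change of -0.43 (standard error 0.26) and an adjusted p of 0.334 by limma. For Mars the FPKM was 14.4 and 19.3 against 14.2 and 13.0, and for Rars it was 7.57 and 10.4 against 7.54 and 6.18. The gap between the groups in Mars and Rars was far smaller than the distance between the CD37 fl/fl replicates. Their log2 fold changes were -0.28 and -0.34, and they were 0.08 and 0.00 after rescaling to the same sum.

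The groups overlapped in the other 11 synthetases. Of these, Eprs (glutamate and proline, 0.39), Nars (asparagine, 0.27), Aars (alanine, 0.15), Qars (glutamine, 0.13) and Vars (valine, 0.13) had a positive log2 fold change. Farsa and Farsb, the subunits of the phenylalanine enzyme (-0.29 and -0.24), Hars (histidine, -0.17), Lars (leucine, -0.16), Wars (tryptophan, -0.13) and Kars (lysine, -0.02) had a negative one. Their standard errors lay between 0.20 and 0.35, and each of these 11 values was less than 2 standard errors from 0. Nars had the widest spread of them, with an FPKM of 12.1 and 23.9 in CD37 fl/fl against 19.7 and 22.1 in CD37-/- LSCs. Both CD37-/- libraries lay between the CD37 fl/fl replicates. Vars had the highest FPKM of the synthetases and close replicates, with 29.6 and 32.9 against 32.7 and 36.0. Farsb overlaps Sgpp2 over 2315 bases on the opposite strand, and Hars, Wars, Yars and Mars overlap an opposite-strand gene over 30 to 544 bases. As the strand setting of the counting is not given in the sources used here, reads in those stretches may come from either gene.

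The 8 synthetases of the multi-synthetase complex (Dars, Eprs, Iars, Kars, Lars, Mars, Qars and Rars) were 4 higher and 4 lower by sign, with a median log2 fold change of 0.06. The 12 outside it were 4 higher and 8 lower, with a median of -0.21. The highest and lowest complex members, Dars at 0.87 and Rars at -0.34, lay on opposite sides of 0. The difference between the groups of 8 and 12 was not tested.

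**Figure D2:**
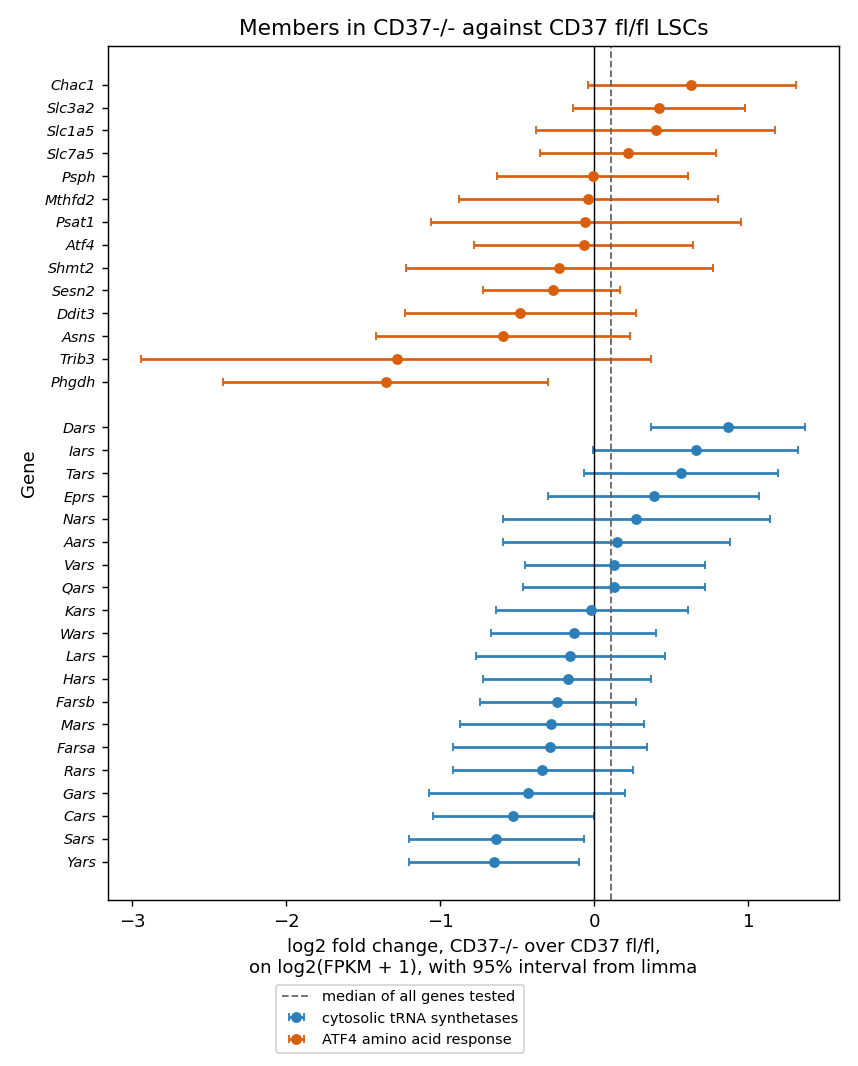
Log2 fold change of CD37-/- over CD37 fl/fl LSCs on log2(FPKM + 1) for the 34 tested genes, with the 95% interval from limma (points and bars; orange, ATF4 amino acid response; blue, synthetases). The dashed line is the median of all 6761 tested genes at 0.11, and the intervals of Dars, Yars, Sars, Cars and Phgdh lie to one side of 0.

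The enzymes of serine synthesis, mitochondrial one-carbon metabolism and asparagine synthesis are classical ATF4 targets. All 6 had a log2 fold change below 0 with the deposited FPKM, with a median of -0.14. Only Phgdh and Asns had groups that did not overlap, both lower, which is 33.3% of the 6, against 23.7% of all tested genes. Of the 14 tested ATF4 response genes, 3 had both CD37-/- libraries above both CD37 fl/fl libraries (21.4%) and 5 had both below (35.7%). For all tested genes these shares were 38.2% and 23.7%. Psat1, Psph, Shmt2 and Mthfd2 were above 0 (0.15 to 0.30) after rescaling every library to the same sum. Phgdh, the first enzyme of serine synthesis, had the log2 fold change farthest from 0 of the 34 tested genes. Its FPKM was 4.95 and 13.8 in CD37 fl/fl against 2.53 and 2.83 in CD37-/- LSCs. Both CD37-/- libraries were below both CD37 fl/fl libraries, which themselves differed 2.80-fold, and the CD37-/- mean was 28.5% of that in CD37 fl/fl. The log2 fold change of Phgdh was -1.35 (standard error 0.43, 95% interval -2.41 to -0.30), with an adjusted p of 0.151 by limma with Benjamini-Hochberg adjustment and a range of 0.0903 to 0.416 over the alternatives. Leaving out CD37 fl/fl replicate 2 gave -0.69, and leaving out replicate 1 gave -2.01. Without CD37-/- replicate 1 the value was -1.29 and the unadjusted call was lost. Phgdh also shares 59.9% of its stretches of 31 bases with genes elsewhere. Of these, 4 processed pseudogenes hold at least 20% each, so its reads could be split among copies and its level is uncertain.

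Asns, which makes asparagine from aspartate and glutamine, had an FPKM of 16.9 and 30.1 in CD37 fl/fl against 16.6 and 12.9 in CD37-/- LSCs. The groups were separated by a narrow gap, with CD37 fl/fl replicate 1 close to CD37-/- replicate 1. Its log2 fold change, with its standard error, was -0.59 ± 0.33 (adjusted p by limma 0.31), and leaving out CD37 fl/fl replicate 2 gave -0.20. The later enzymes of serine synthesis are Psat1 and Psph. Psat1, the aminotransferase, had an FPKM of 7.35 and 17.7 against 12.4 and 9.78, and Psph, the phosphatase, had 1.48 and 2.89 against 2.17 and 2.00. Both CD37-/- values lay between the CD37 fl/fl values in each of these genes.

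Shmt2 and Mthfd2 carry the one-carbon unit of serine in mitochondria. The FPKM of Shmt2 was 56.1 and 120 in CD37 fl/fl against 70.5 and 69.7 in CD37-/- LSCs. That of Mthfd2 was 6.82 and 14.0 against 9.95 and 9.05. As for Psat1 and Psph, the CD37-/- libraries lay inside the range of the CD37 fl/fl pair. Psph overlaps Cct6a over 452 bases and Shmt2 overlaps Ndufa4l2 over 32 bases on the opposite strand, so reads there are uncertain too. The log2 fold changes of Psat1, Psph, Shmt2 and Mthfd2 were -0.06, -0.01, -0.23 and -0.04, each smaller than its standard error of 0.25 to 0.41.

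**Figure D3:**
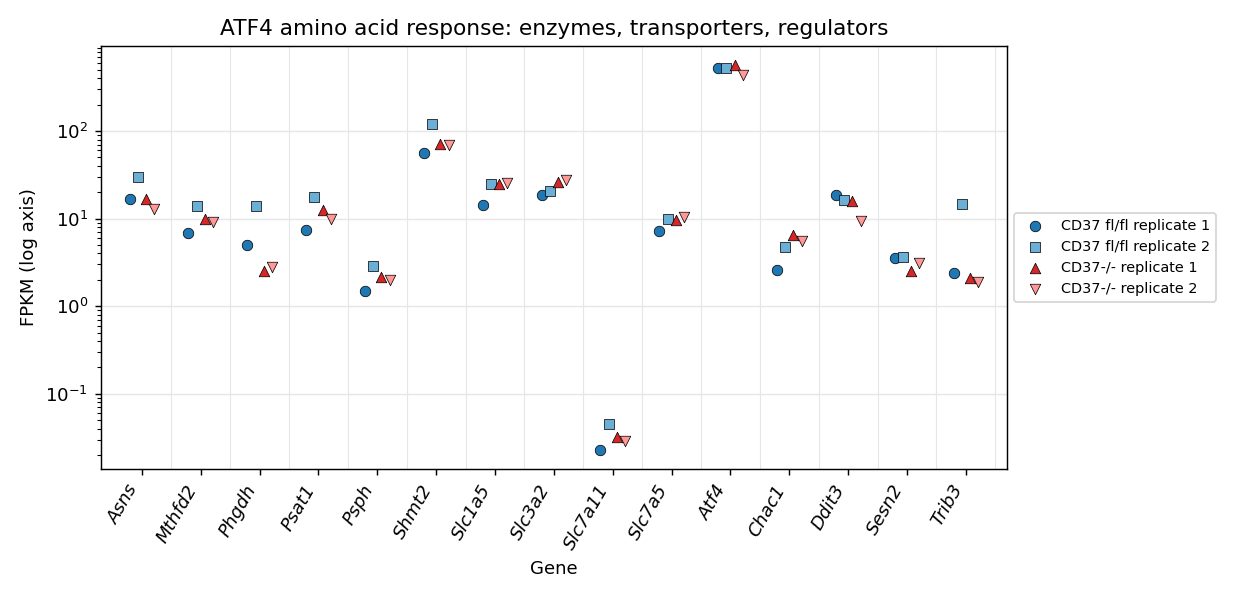
FPKM on a log axis of the 15 genes of the ATF4 amino acid response in each library (circles and squares, CD37 fl/fl replicates 1 and 2; triangles up and down, CD37-/- replicates 1 and 2). CD37 fl/fl replicate 2 stands above the other 3 libraries for Trib3 (14.6), Phgdh (13.8), Asns (30.1), Psat1 (17.7) and Shmt2 (120), whereas the 4 Atf4 values lie between 440 and 566.

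The amino acid transporters had positive log2 fold changes where they were tested. Slc3a2, the heavy chain that brings several light chains to the membrane, had an FPKM of 18.5 and 20.8 in CD37 fl/fl against 25.9 and 27.4 in CD37-/- LSCs. The groups did not overlap, and each pair of replicates was close. The log2 fold change of Slc3a2 was 0.42 ± 0.23, with an adjusted p of 0.295 by limma. Its partner Slc7a5, the leucine transporter, had 7.30 and 9.91 against 9.68 and 10.5, with a log2 fold change of 0.22. Slc1a5, the glutamine transporter, had 14.4 and 25.1 against 25.1 and 25.6, with a log2 fold change of 0.40. In Slc1a5 the higher CD37 fl/fl library reached the level of CD37-/-, and leaving out CD37 fl/fl replicate 1 gave 0.02. The 3 tested transporters had a median of 0.40. Slc7a11 had an FPKM of 0.0230 and 0.0452 in CD37 fl/fl against 0.0323 and 0.0291 in CD37-/- LSCs, over a span of 551089 bases and with 194 to 432 reads. Its limma-voom log2 fold change was -0.10 (standard error 0.39), and the groups overlapped.

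Atf4 itself had an FPKM of 519 and 529 in CD37 fl/fl against 566 and 440 in CD37-/- LSCs. The CD37-/- replicates lay on either side of the CD37 fl/fl pair. The log2 fold change of Atf4 was -0.07 (standard error 0.29, 95% interval -0.78 to 0.64), with an adjusted p of 0.896 by limma, and it was 0.40 after quantile normalization and 0.31 after rescaling to the same sum. Since ATF4 is controlled largely at translation, the RNA level is no measure of the protein.

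The regulators downstream of Atf4 differed from each other. Trib3, a pseudokinase that restrains ATF4, had an FPKM of 2.40 and 14.6 in CD37 fl/fl against 2.10 and 1.89 in CD37-/- LSCs. A single library, CD37 fl/fl replicate 2, stood 6.08-fold above its replicate, and the other 3 libraries were alike. The log2 fold change of Trib3 was -1.28 (standard error 0.67, 95% interval -2.94 to 0.37), with an adjusted p of 0.286 by limma. It was -0.18 without CD37 fl/fl replicate 2 and -2.38 without CD37 fl/fl replicate 1. Chac1, a glutathione-degrading enzyme, was higher in both CD37-/- libraries. Its FPKM was 2.57 and 4.76 in CD37 fl/fl against 6.44 and 5.62 in CD37-/- LSCs, from 124 to 401 reads. The groups of Chac1 did not overlap, and it had a log2 fold change of 0.63 (standard error 0.27, 95% interval -0.04 to 1.31) and an adjusted p of 0.222 by limma.

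Ddit3, which encodes the stress factor CHOP, had an FPKM of 18.5 and 16.5 in CD37 fl/fl against 16.0 and 9.30 in CD37-/- LSCs. Only CD37-/- replicate 2 stood apart, and the log2 fold change of -0.48 (standard error 0.30, adjusted p 0.357 by limma) became -0.12 without it. Ddit3 overlaps Mars by 68 bases on the opposite strand. Sesn2, a leucine-binding inhibitor of mTORC1, had an FPKM of 3.52 and 3.67 against 2.51 and 3.11. The CD37 fl/fl replicates of Sesn2 nearly coincided and the groups did not overlap, with a log2 fold change of -0.27 (standard error 0.18) and an adjusted p of 0.379 by limma. Its sign turned after rescaling to the same sum (0.02).

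A pattern shared by these genes lay within the CD37 fl/fl group. CD37 fl/fl replicate 2 was above replicate 1 in 33 of the 34 tested genes, with Ddit3 as the exception, and the median difference on log2(FPKM + 1) was 0.46. Of all 6761 tested genes, 61.2% were higher in replicate 2 and the median difference was 0.09. For the 20 synthetases the count was 20 of 20 with a median of 0.43, and for the 6 enzymes of serine, one-carbon and asparagine metabolism it was 6 of 6 with a median of 1.01. The largest differences were those of Trib3 (2.20), Phgdh (1.32), Psat1 (1.16) and Shmt2 (1.08). Between the CD37-/- replicates, replicate 2 was above replicate 1 in 15 of the 34 genes with a median difference of -0.06, against 50.9% and 0.01 over all genes. The difference within CD37 fl/fl was similar with other scalings, with a median of 0.40 after quantile normalization (31 of 34 genes), 0.47 after rescaling to the same sum (33 of 34) and 0.50 as log2 of depth-scaled reads (33 of 34). Replicate 1 was the shallower library, with 15327357 against 17327701 reads, and it had more of the erythroid markers (60.9 against 5.17). The part of either in the difference was not tested.

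**Figure D4:**
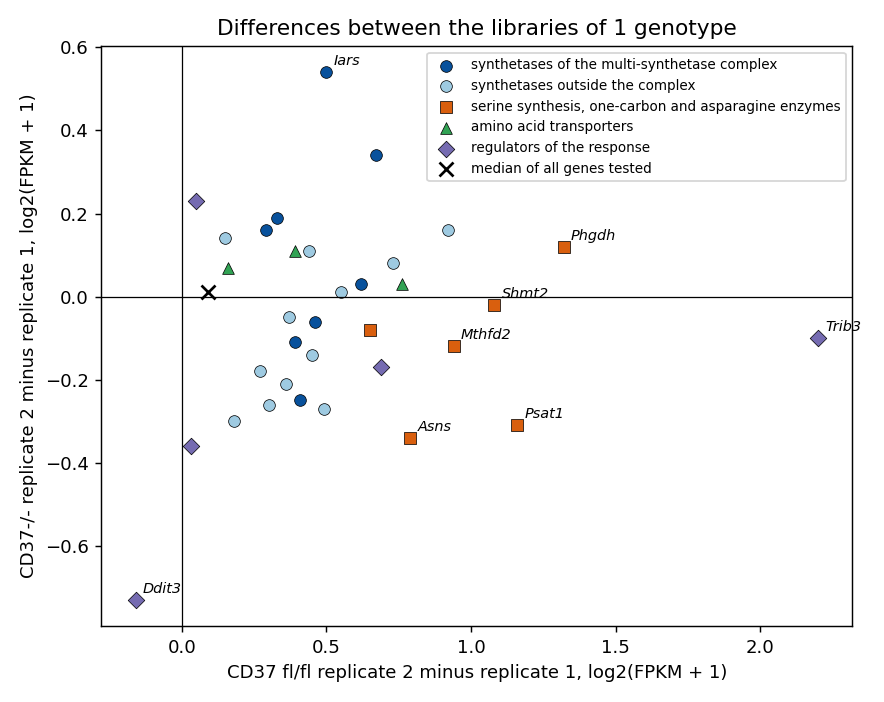
Difference between the replicates of each genotype on log2(FPKM + 1) for the 34 tested genes, CD37 fl/fl on the horizontal axis and CD37-/- on the vertical axis, with symbols for the groups of genes and a cross for the median of all tested genes (0.09 and 0.01). All points but Ddit3 lie to the right of 0, with Trib3 farthest at 2.20, while they lie on both sides of 0 in CD37-/-.

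The comparison between genotypes therefore depended on which CD37 fl/fl library was kept. Without CD37 fl/fl replicate 2, the median log2 fold change was 0.12 for the synthetases, 0.32 for the ATF4 response genes and 0.13 for all genes. When replicate 1 was dropped instead and replicate 2 kept, these medians moved to -0.36 (synthetases), -0.37 (ATF4 response genes) and 0.07 (all genes). The ATF4 response genes thus lay 0.18 above the median of all genes without replicate 2 and at -0.44 from it without replicate 1. The sign of 8 genes turned without replicate 2 (Hars, Kars, Lars, Wars, Psat1, Psph, Shmt2 and Mthfd2) and that of 3 turned without replicate 1 (Aars, Nars and Qars). Dars and Phgdh kept both their sign and an unadjusted p under 0.05 in each of these 2 fits. In these fits the lone CD37 fl/fl library is assumed to vary as the CD37-/- libraries do.

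**Figure D5:**
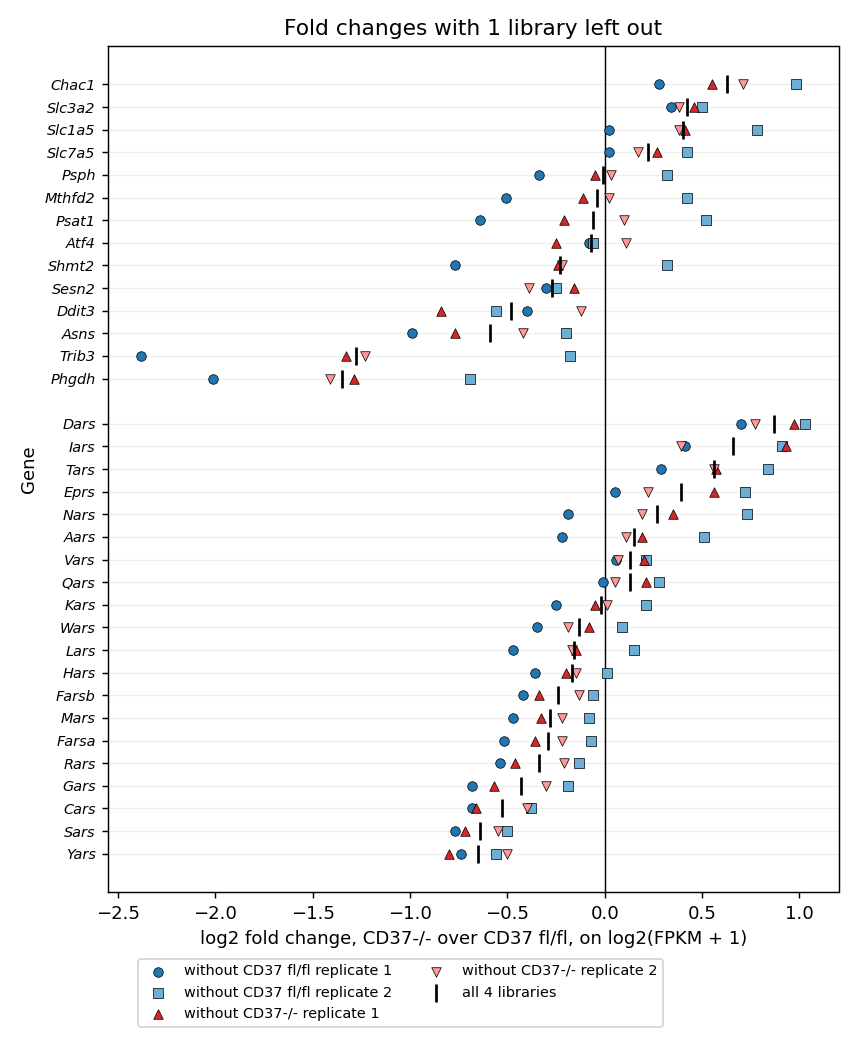
Log2 fold change of CD37-/- over CD37 fl/fl LSCs on log2(FPKM + 1) for the 34 tested genes with all 4 libraries (vertical ticks) and with each library left out in turn (symbols as in the legend). Leaving out CD37 fl/fl replicate 1 or 2 moves most genes to the left or to the right, for Trib3 to -2.38 and -0.18, whereas Dars stays between 0.70 and 1.03.

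Genes of the same pathways outside the 35 were counted by the same test. Of the mitochondrial synthetases, 14 of 19 measured genes were tested, and the median log2 fold change was 0.10. With an unadjusted p under 0.05, 1 was higher (7.14%, against 16.1% of all tested genes). That gene was Vars2, the mitochondrial valine enzyme, with an FPKM of 0.540 and 0.835 in CD37 fl/fl against 1.60 and 2.22 in CD37-/- LSCs. The groups did not overlap, and it had a log2 fold change of 0.78 (standard error 0.20) and an adjusted p of 0.119 by limma. The 3 scaffold proteins of the multi-synthetase complex and the tRNA exporter Xpot had 0 of 4 such genes with limma and 0 of 3 with limma-voom, with a median of 0.32.

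Of the genes acting on eIF2 alpha, 6 of 8 measured genes were tested, 5 of them higher by sign, with a median of 0.33. Ppp1r15b, which brings phosphatase to eIF2 alpha without need of stress, was the 1 gene with an unadjusted p under 0.05 by limma. It was higher, which is 16.7% of the 6, against 16.1% of all tested genes. Its FPKM was 13.1 and 12.8 in CD37 fl/fl against 27.0 and 35.3 in CD37-/- LSCs, well apart. Its log2 fold change, with its standard error, was 1.19 ± 0.24 (adjusted p by limma 0.0941). With limma-voom, 3 of 7 genes were higher by this rule (42.9%, against 19.1% of all genes), namely Ppp1r15b and the eIF2 alpha kinases Eif2ak2 and Eif2ak3. The FPKM of Eif2ak2 was 1.06 and 0.952 against 1.45 and 2.14, and that of Eif2ak3 was 0.274 and 0.294 against 0.453 and 0.680. Neither overlapped between the groups. Ppp1r15a, the stress-induced counterpart of Ppp1r15b, had an FPKM of 10.4 and 16.5 against 8.04 and 12.8. Eif2ak4, which encodes GCN2, was below the filter with 0.230 and 0.312 against 0.378 and 0.432, and its limma-voom log2 fold change was 0.59.

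Of 5 tested transcription factors of the response, 4 were lower by sign, with a median of -0.40. Nupr1, a small stress-induced chromatin protein, was the 1 of them with an unadjusted p under 0.05 by limma. The FPKM of Nupr1 was 7.28 and 8.07 in CD37 fl/fl against 2.07 and 2.32 in CD37-/- LSCs. Replicates were close in both groups, and it had a log2 fold change of -1.44 (standard error 0.18) with an adjusted p of 0.0502 by limma with Benjamini-Hochberg adjustment. With limma-voom, 1 of 6 was lower, Nupr1 (16.7%, against 6.19% of all genes), and 1 was higher, Jdp2 (16.7%, against 19.1%). Jdp2, an AP-1 family repressor, had an FPKM of 1.30 and 1.39 against 1.98 and 2.10, with no overlap. Among 21 further measured genes reported as ATF4 targets, 11 were tested. Of these, 2 were lower with an unadjusted p under 0.05 (18.2%, against 7.96% of all tested genes) and 0 were higher (against 16.1%). Stc2, a secreted glycoprotein, had an FPKM of 1.08 and 4.57 against 0.146 and 0.540, with a log2 fold change of -1.36 (standard error 0.47) and an adjusted p of 0.165 by limma. Pck2, the mitochondrial phosphoenolpyruvate carboxykinase, had 21.7 and 38.9 against 17.6 and 14.1, with a log2 fold change of -0.84 (standard error 0.34) and an adjusted p of 0.203 by limma. With limma-voom, 3 of the 21 were lower (14.3%, against 6.19% of all genes) and 0 higher (against 19.1%). The third was Slc1a4, a neutral amino acid transporter, with an FPKM of 0.259 and 0.679 against 0.148 and 0.203. The median of the 11 was 0.11, equal to that of all tested genes, and all 11 were higher in CD37 fl/fl replicate 2 than in replicate 1. Of the 7 genes of amino acid sensing by mTORC1, only Nprl2 was above the filter, with a log2 fold change of -0.18.

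Levels of different genes can be set side by side only per length of exon. On this scale, recovered reads per exon length and sequencing depth (RPKM), Atf4 had the highest mean level of the 35 genes in both genotypes, 536 in CD37 fl/fl and 513 in CD37-/- LSCs. In CD37 fl/fl it was followed by Gars (167), Asns (159), Shmt2 (154) and Psat1 (128). In CD37-/- LSCs the next were Slc3a2 (127), Shmt2 (122), Gars (118), Psat1 (113) and Slc1a5 (105), with Asns at 99.2. Below Atf4, neighbours in these orders did not differ beyond their spread, since over the 4 libraries Gars ran from 106 to 197 and Psat1 from 75.7 to 180. The lowest means over the 4 libraries were those of Slc7a11 (1.31), Chac1 (9.51), Psph (11.0) and Eprs (12.6). The exon length joins all annotated exons of a gene, so a gene with many such bases has a low value for its reads. For Eprs it was 18102 bases, with 1998 to 6726 reads, so its place in this order is uncertain. Among the synthetases, Vars (91.5) and Nars (77.4) came after Gars by the same mean. The mean level of Dars on this scale was 26.4 in CD37 fl/fl and 58.0 in CD37-/-, and that of Yars was 65.7 and 40.0.

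The promoter matches were then set beside the fold changes. The 7 tested genes with a match were 3 higher (Chac1, Iars and Tars) and 4 lower (Asns, Gars, Trib3 and Yars) by sign, with a median log2 fold change of -0.43 and a range of -1.28 to 0.66. The 17 tested genes searched without one were 4 higher and 13 lower, with a median of -0.07. The median difference of CD37 fl/fl replicate 2 over replicate 1 was 0.55 with a match and 0.39 without. These are descriptions over genes of the same 4 libraries, and the sets were not tested against each other.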

How the data were processed

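Poly(A) RNA of sorted YFP+, c-kit+ LSCs (2 CD37 fl/fl and 2 CD37-/- libraries) went into strand-specific sequencing. FPKM was the unit deposited by the authors, 1 column per library, without a log or pooling. The submitters' processing notes name fastp 0.20.1, STAR 2.7.7a, featureCounts 2.0.0, edgeR and the build mm39, while the annotation and the strand setting are not given in the sources used here. Names and lengths came from GENCODE M21 on GRCm38, which matched 17045 of 17104 identifiers (99.7%), and with its gene spans the values of 16843 genes (98.5%) were whole reads in all 4 libraries, within a tolerance of 0.05 reads. Between 98.9% and 99.0% of the values of up to 1000 reads were whole. Coordinates are therefore those of GRCm38, not of mm39. Replicates differed by more than sampling noise (chi-square per degree of freedom 93.3 and 60.7).

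For the 6761 genes whose mean FPKM reached 1, log2(FPKM + 1) was fitted with limma 3.58.1 (R 4.3.3, statmod 1.5.0; eBayes with trend, 2-sided, genotype alone), and p was adjusted after Benjamini-Hochberg (threshold 0.05). Changes of weakly expressed genes are understated on this scale. Limma-voom took genes whose mean of recovered reads reached 10. Alternatives were a pseudocount of 0.1, all genes above 0, quantile normalization, rescaling to the same sum, robust variance, the replicate number as a block, exon length, limma-voom and each library left out. Shared sequence was measured as stretches of 31 bases common to exons of other genes. Tables and figures used Python 3.11.15, pandas 2.3.3, numpy 2.4.6 and matplotlib 3.10.9, and the fit was tested on simulated data. The members and lists were chosen with earlier results of these data known. All 35 members are named, and of the other pathway lists each gene with an unadjusted p under 0.05 by limma or limma-voom. Marker lists are given by sums, with the marker genes that moved most named after their values were seen. The promoter of 1 gene is not reported here. The windows around the motif matches, and Ppp1r15a and Eif2ak4, were chosen after their values were seen.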

Additional observations from a re-analysis of the deposited data

How the results depend on the processing

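The count of 0 genes at an adjusted p under 0.05 over the whole table became 88 with robust variance estimation and 73 with the replicate block, none of them among the genes described here, and stayed 0 in the other alternatives. Members higher at an unadjusted p under 0.05 (1 gene) were 2 with all genes above 0, robust variance, the replicate block, exon length or limma-voom and 5 after rescaling to the same sum. Those lower (4 genes) were 2 with all genes above 0 or the replicate block and 1 after rescaling to the same sum. By the same rule, 2293 of 6865 genes of the whole table were called after rescaling, 91.5% of them higher. With all genes above 0 the calls were 2911 of 16973 (73.2% higher), and with exon length 2619 of 10464 (73.4%). They were 3261 of 12901 with limma-voom (75.5%), and of 6761 genes 1639 with robust variance (66.5%) and 1577 with the replicate block (68.5%). Leaving out each library gave 1 to 6 higher and 1 to 6 lower, and a median of the synthetases between -0.36 and 0.12, with 0.17 after rescaling to the same sum. A fit with 1 library left out has only 1 library in a group, so its member counts were not set beside those of the whole table. The log2 fold change of Psph was 0.01 with a pseudocount of 0.1, and those of Shmt2 and Atf4 were 0.05 and 0.40 after quantile normalization. After rescaling to the same sum the sign turned for Farsa (0.07), Farsb (0.03), Hars (0.17), Kars (0.34), Lars (0.14), Mars (0.08), Rars (0.00), Wars (0.17), Psat1 (0.29), Psph (0.25), Shmt2 (0.15), Mthfd2 (0.30), Atf4 (0.31) and Sesn2 (0.02), an alternative that moves the median of all genes to 0.40. With 1 library left out the values ranged over 0 for Aars (-0.22 to 0.51), Hars (-0.36 to 0.01), Kars (-0.25 to 0.21), Lars (-0.47 to 0.15), Nars (-0.19 to 0.73), Qars (-0.01 to 0.28), Wars (-0.35 to 0.09), Psat1 (-0.64 to 0.52), Psph (-0.34 to 0.32), Shmt2 (-0.77 to 0.32), Mthfd2 (-0.51 to 0.42) and Atf4 (-0.25 to 0.11). The libraries that decide these signs are CD37 fl/fl replicates 1 and 2, and CD37-/- replicate 2 for Atf4 and, with values of 0.01 to 0.10, for Kars, Psat1, Psph and Mthfd2. With the replicate block, Sars (-0.64) and Cars (-0.53) lost their unadjusted call and Iars (0.66) gained it. The replicate differences of the groups had a correlation of -0.04 over 6761 genes. With 1 library per genotype and replicate number, this cannot show whether libraries of the same number belong together. The cause of these changes was not tested.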
